A study of Mus musculus with 12 samples.

Results

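The 10 genes described here mark vascular endothelium, the cell layer that lines blood vessels, and were read in RNA libraries of mouse retinal pigment epithelium (RPE), the pigmented layer that lies against the choroidal vessels behind the retina. They were chosen by symbol: Kdr, Flt1, Tek, Tie1, Eng, Pecam1, Cdh5, Cldn5, Esam and Emcn. All 10 were found among the 13942 genes of the table, each in 1 row, and all 10 lay above the table's floor of 50 in all 12 libraries. The study compared 4 groups of 3 libraries each, all from C57BL/6J mice: wild-type (WT) at embryonic stage E15.5, conditional Sox9 knockout (cKO) at E15.5, WT at postnatal day 5 (P5) and cKO at P5. The driver of the deletion, the exons removed, the number of animals behind a library and the way RPE was separated from its neighbours are not given in any source used here. Values are normalised counts: read counts per gene after the authors' quantile normalisation.

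Endothelium is governed by a small set of receptor systems. VEGF acts through KDR (VEGFR2), with FLT1 (VEGFR1) binding the same ligand and limiting its supply, while the angiopoietins act through TEK (TIE2) together with TIE1, and endoglin (ENG) is a coreceptor for ligands of the TGF-beta family. Cells of the vessel wall are joined by VE-cadherin (CDH5), PECAM1, claudin-5 (CLDN5) and ESAM, and carry the sialomucin endomucin (EMCN) on their surface. Behind the RPE, the choriocapillaris is a bed of fenestrated capillaries that depends on VEGF from the RPE, whereas vessels of the retina form a barrier.

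The libraries labelled cKO were not lower in Sox9, whose level was 1049 ± 113 (SD, n = 3) in WT and 1010 ± 22.3 in cKO at E15.5, and 1192 ± 277 in WT against 2482 ± 405 in cKO at P5. At P5 Sox9 was higher in the libraries labelled cKO (log2 fold change 1.07, limma adjusted p = 0.0316). The exons removed and the driver are not given, so whether a count over the whole gene can check the label is unknown. Every genotype direction given here is therefore that of the libraries labelled cKO. Of 15 RPE genes tested, 1 was called between the labels at each age. Ttr was lower in E15.5 cKO (log2 fold change -3.99, limma adjusted p = 0.000521), and Rpe65 was at the floor in each P5 cKO library against 178 to 564 in P5 WT (limma adjusted p = 0.00617). The other 14 were not called at the given age, and 13 of the 15 were below 0 at E15.5 and 8 at P5. The RPE was present in all libraries: 15 of 16 listed RPE genes were in the table, and their mean log2 level was 8.92 to 10.02 at E15.5 and 11.36 to 12.55 at P5. Other cells were present too. The mean log2 level of 12 mesenchyme and fibroblast genes was 11.96 to 13.29, and that of 15 photoreceptor genes was 5.67 to 5.73 at E15.5, with 13 to 15 of them at the floor in each library, but 7.47, 8.99 and 12.16 in the P5 WT libraries and 7.49, 11.31 and 10.21 in the P5 cKO libraries (replicates 1, 2 and 3). In bulk RNA, fewer endothelial cells and less endothelial RNA per cell cannot be told apart. Sequencing depth is unknown, since normalisation gave all libraries the same sum.

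**Figure D1:**
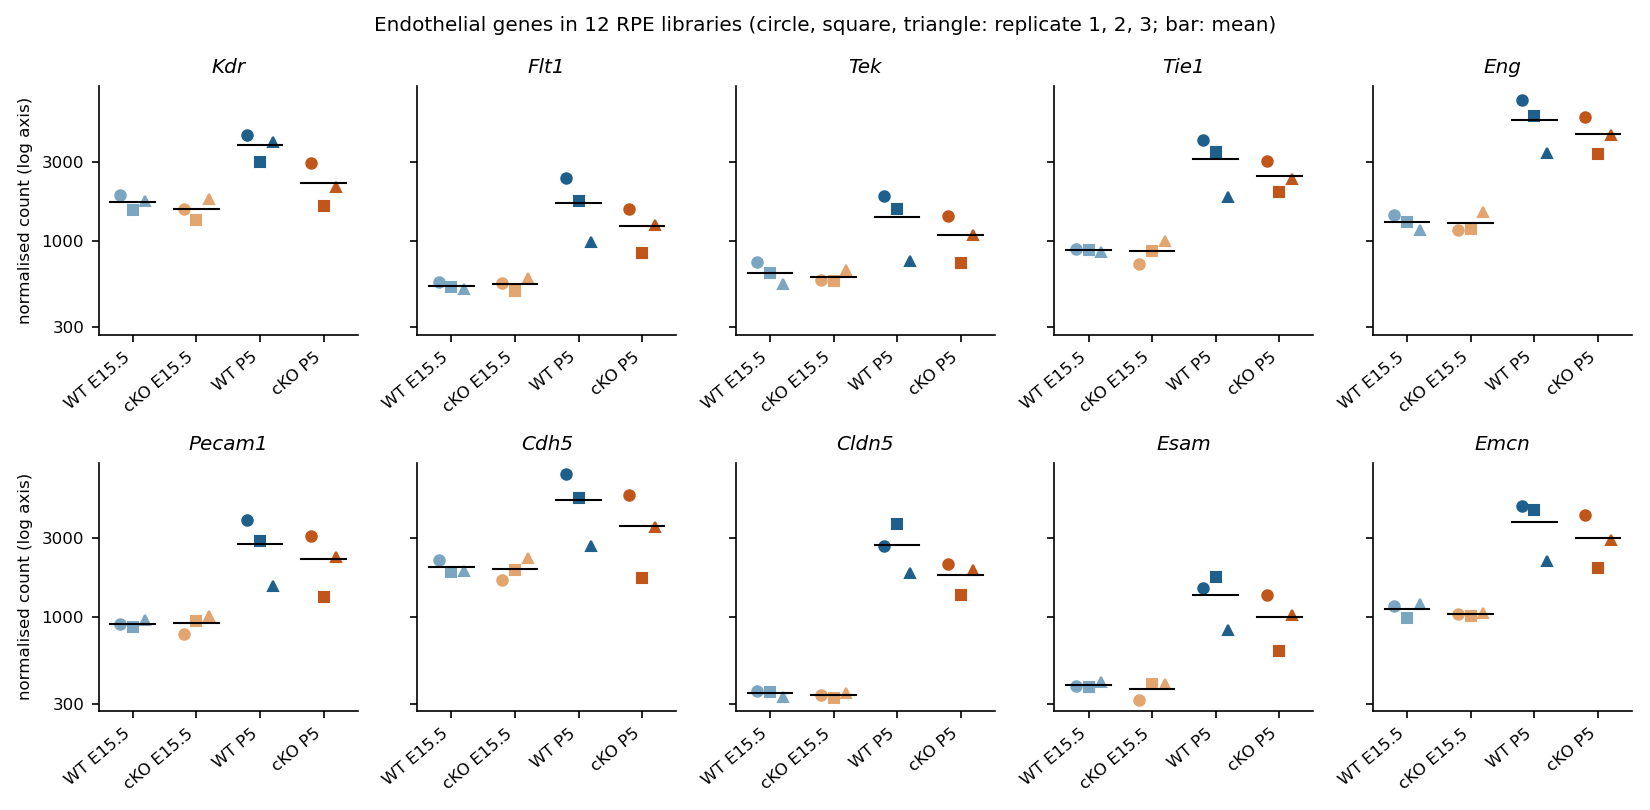
Normalised count (log axis) of each of the 10 endothelial genes in the 12 libraries, by group, with 1 point per library and a bar at the group mean. The 3 replicates of each gene were close together at E15.5 and higher and further apart at P5, where WT replicate 3 and cKO replicate 2 were the lowest of their groups for 9 and 10 genes.

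With age, every one of the 10 genes rose in WT. The log2 fold change from E15.5 to P5 ran from 1.02 in Tek to 2.92 in Cldn5, with a median of 1.62 against -0.07 over the 13523 genes tested. All 10 passed (limma, adjusted p from 1.15e-05 to 0.0364), where 15% of all genes tested were called higher. In all 10 the P5 WT libraries lay above the E15.5 WT libraries without overlap, as in 19.3% of all genes, and the exact permutation p of 3 libraries against 3 was then 0.1, the smallest possible. In the libraries labelled cKO, 7 of the 10 rose (17.6% of all genes were called higher) and the median was 1.29. In 8 of the 10 the cKO ages did not overlap, as in 23.8% of all genes. The other 3, Kdr, Tek and Cdh5, had log2 fold changes of 0.48 ± 0.22, 0.78 ± 0.32 and 0.72 ± 0.41 (SE), with limma adjusted p of 0.0984, 0.0668 and 0.179. Tek passed with only the libraries compared (limma adjusted p = 0.0345) and with median-ratio scaling (0.0420). With the P5 libraries of highest photoreceptor level left out (WT replicate 3 and cKO replicate 2), an alternative chosen after the data were seen, all 10 passed in both genotypes, with medians of 1.98 in WT and 1.60 in cKO. Without cKO replicate 2 alone all 10 passed in cKO too. Within their P5 groups, these libraries were also the lowest for 9 (WT) and 10 (cKO) of the 10 genes. Leaving them out therefore raises the P5 level of those genes by construction, so these fits add no evidence for the rise. Tek and Cdh5 were the least firm in WT: Cdh5 lost its call without any 1 of the WT libraries but P5 replicate 3, and Tek without E15.5 replicate 2 or 3 or P5 replicate 1 or 2 (limma adjusted p 0.0682 to 0.117). In cKO, Pecam1 lost its call without E15.5 replicate 1 or P5 replicate 3 (limma adjusted p = 0.0521 and 0.0511).

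Over all genes, 2028 were called higher and 3143 lower with age in WT, and 2379 and 3526 in cKO. With median-ratio scaling these were 2537 and 2438 in WT and 2880 and 2780 in cKO, since the median of all genes moved from -0.07 to 0.03 and from -0.08 to 0.02 (log2). The median of the 10 genes moved from 1.62 to 1.73 in WT and from 1.29 to 1.40 in cKO. This scaling shifts all genes by nearly the same small amount. The smallest rise of the 10 was 0.48 (Kdr in cKO), so the scaling could not change a direction.

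**Figure D2:**
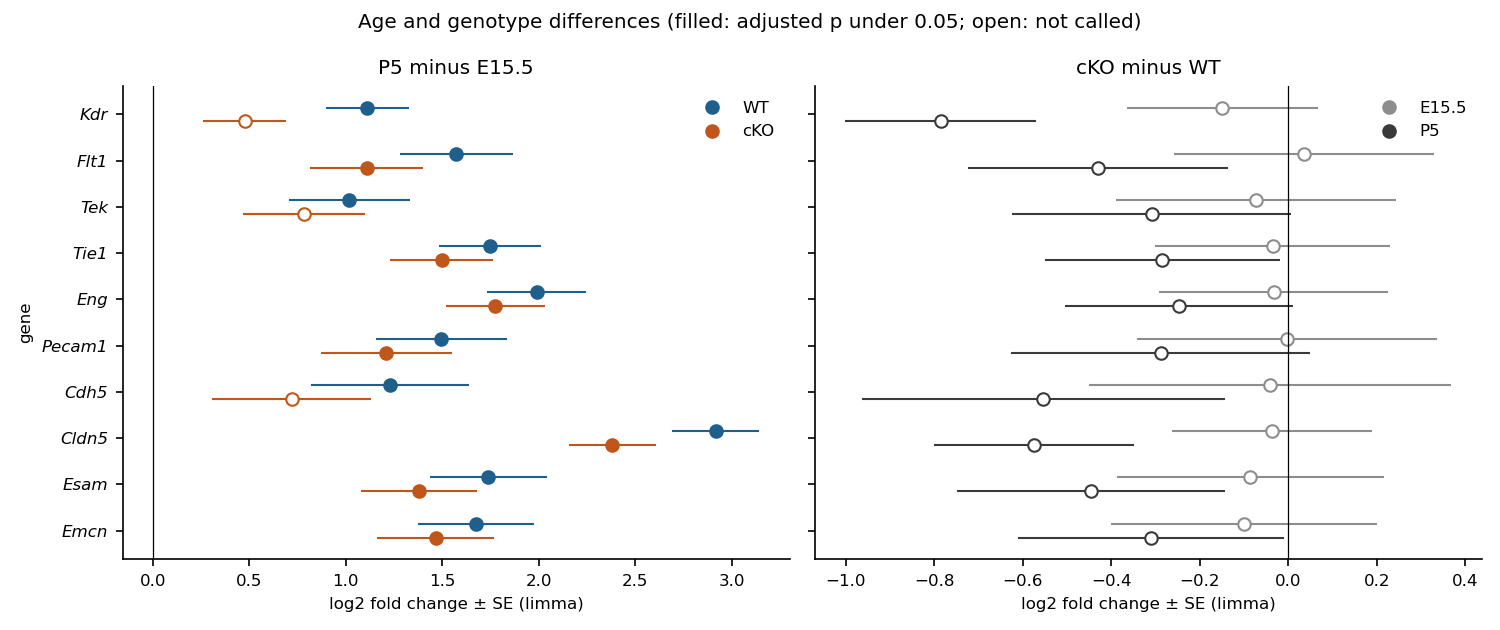
Log2 fold change with its standard error for each gene, P5 minus E15.5 in WT and cKO (left) and cKO minus WT at E15.5 and P5 (right); filled points passed the limma test over all genes at an adjusted p under 0.05. All 10 age differences in WT and 7 in cKO were called, and no genotype difference was.

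Among the receptors, Kdr, the main signalling receptor for VEGF, read 1881, 1535 and 1742 in the E15.5 WT libraries and 4361, 2966 and 3923 at P5 (replicates 1, 2 and 3). In the libraries labelled cKO it read 1548, 1333 and 1788 at E15.5 and 2932, 1610 and 2099 at P5. The WT ages stood apart, while in cKO the lowest P5 library fell within the E15.5 range. Kdr (ENSMUSG00000062960, chromosome 5, 75932827 to 75978458, GRCm38) rose in WT by a log2 fold change of 1.11 ± 0.22 (SE, limma adjusted p = 0.00258).

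Flt1, which also binds placental growth factor (ENSMUSG00000029648, chromosome 5, 147561604 to 147726011), read 566, 528 and 509 in E15.5 WT and 2388, 1727 and 975 in P5 WT. It read 554, 495 and 598 in E15.5 cKO and 1555, 846 and 1250 in P5 cKO. The ages did not overlap in either genotype, and Flt1 rose by 1.57 ± 0.29 in WT and 1.11 ± 0.29 in cKO (log2, SE; limma adjusted p = 0.00209 and 0.0116).

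Tek, the angiopoietin receptor (ENSMUSG00000006386, chromosome 4, 94739289 to 94874976), had the smallest rise in WT, with 743, 636 and 544 at E15.5 and 1846, 1542 and 752 at P5. Its lowest P5 library was only just above its highest E15.5 library. In cKO Tek went from 576, 573 and 667 to 1408, 736 and 1088, without overlap. Tie1, an orphan receptor that pairs with TEK (ENSMUSG00000033191, chromosome 4, 118471191 to 118490061), went further, from 888, 879 and 857 to 4063, 3419 and 1824 in WT and from 720, 869 and 994 to 3040, 1955 and 2359 in cKO. Its log2 fold changes were 1.75 ± 0.27 and 1.5 ± 0.27 (SE, limma adjusted p = 0.000625 and 0.00129).

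Eng (ENSMUSG00000026814, chromosome 2, 32646595 to 32682669) had the largest rise of the receptors. It read 1431, 1304 and 1163 in E15.5 WT and 7053, 5680 and 3391 in P5 WT, and 1156, 1170 and 1497 in E15.5 cKO against 5559, 3353 and 4367 in P5 cKO. Both genotypes showed a clear gap between the ages, with log2 fold changes of 1.99 ± 0.26 and 1.78 ± 0.26 (SE, limma adjusted p = 0.000246 and 0.000402).

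Of the junction genes, Cldn5, a tight junction protein of endothelium (ENSMUSG00000041378, chromosome 16, 18776847 to 18778262), rose most of all 10. It read 359, 355 and 328 in E15.5 WT and 2701, 3656 and 1839 in P5 WT, a log2 fold change of 2.92 ± 0.23 or 7.56-fold (SE, limma adjusted p = 1.15e-05). The libraries labelled cKO went from 341, 326 and 348 to 2102, 1356 and 1929, by 2.38 ± 0.23 or 5.21-fold (SE, limma adjusted p = 3.5e-05). Cldn5 varied by under 20 (SD) between replicates at E15.5.

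Cdh5, the adherens junction cadherin of endothelium (ENSMUSG00000031871, chromosome 8, 104101625 to 104144511), had the largest standard error of the 10. It read 2220, 1884 and 1900 in E15.5 WT and 7324, 5219 and 2688 in P5 WT. In cKO it went from 1669, 1918 and 2278 to 5425, 1722 and 3481, so that the lowest P5 library lay within the E15.5 range. Cdh5 rose in WT by 1.23 ± 0.41 (log2, SE, limma adjusted p = 0.0364).

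Pecam1, an adhesion molecule of endothelium, platelets and leukocytes (ENSMUSG00000020717, chromosome 11, 106654217 to 106750628), read 904, 871 and 965 in E15.5 WT and 3861, 2860 and 1546 in P5 WT. In cKO it went from 792, 943 and 1011 to 3067, 1318 and 2319. Its log2 fold changes were 1.5 ± 0.34 and 1.21 ± 0.34 (SE, limma adjusted p = 0.00587 and 0.0148). Esam, an adhesion molecule of tight junctions that platelets carry as well (ENSMUSG00000001946, chromosome 9, 37528078 to 37538319), rose by 1.74 ± 0.30 in WT, from 384, 378 and 408 to 1501, 1753 and 840, and by 1.38 ± 0.30 in cKO, from 317, 392 and 397 to 1367, 621 and 1030 (log2, SE; limma adjusted p = 0.00135 and 0.00426). Emcn, a surface sialomucin typical of capillaries and veins (ENSMUSG00000054690, chromosome 3, 137341067 to 137432185), read 1164, 990 and 1205 in E15.5 WT and 4698, 4412 and 2185 in P5 WT, and in cKO 1048, 1021 and 1055 against 4138, 1965 and 2926. It rose by 1.67 ± 0.30 and 1.46 ± 0.30 (log2, SE, limma adjusted p = 0.00165 and 0.00299).

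Because the 10 genes rose together, the promoters of 3 of them are shown: Cldn5, which rose most, Kdr, whose rise was not called in cKO, and Tie1, the angiopoietin partner receptor. The windows run from 250 bases before to 50 bases after the RefSeq transcription start (GRCm38.p6), 5′ to 3′ on the gene's strand. Capitals mark the core GGAA of the ETS family, factors known for their role in endothelial genes, on either strand, so that TTCC is the same core read on the other strand.
Cldn5, chr16:18776597-18776896, plus strand: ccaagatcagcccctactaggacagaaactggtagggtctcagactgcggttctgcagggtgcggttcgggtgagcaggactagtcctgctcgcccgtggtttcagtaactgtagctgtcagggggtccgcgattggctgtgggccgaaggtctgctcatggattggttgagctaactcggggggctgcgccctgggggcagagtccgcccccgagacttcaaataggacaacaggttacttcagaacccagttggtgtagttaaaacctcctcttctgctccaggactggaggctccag
Kdr, chr5:75978406-75978705, minus strand: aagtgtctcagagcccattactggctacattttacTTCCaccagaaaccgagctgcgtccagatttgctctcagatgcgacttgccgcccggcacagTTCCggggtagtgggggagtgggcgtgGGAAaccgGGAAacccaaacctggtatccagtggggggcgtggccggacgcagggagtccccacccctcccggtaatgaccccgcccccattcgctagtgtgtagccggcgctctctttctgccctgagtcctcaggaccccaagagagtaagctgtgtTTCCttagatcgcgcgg
Tie1, chr4:118489800-118490099, minus strand: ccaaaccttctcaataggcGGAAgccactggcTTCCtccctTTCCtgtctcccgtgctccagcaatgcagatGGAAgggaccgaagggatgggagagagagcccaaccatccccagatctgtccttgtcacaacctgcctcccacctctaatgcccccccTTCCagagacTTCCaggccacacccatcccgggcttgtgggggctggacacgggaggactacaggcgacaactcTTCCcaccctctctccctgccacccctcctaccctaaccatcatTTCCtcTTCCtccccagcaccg
The core stood 9 times in the Tie1 window, 5 times in that of Kdr and 0 times in that of Cldn5. RefSeq windows were matched for 7 of the 10 genes, all but Pecam1, Cdh5 and Esam, and 6 of the 7 held at least 1 core, where 96.0% of all 32851 promoter windows did, with a median of 3 per window. Both strands were also searched for other motifs. The GATA factor motif, spelled AGATAA, was in 1 of the 7 (Tek) against 11.2% of all windows. The SOX factor motif, spelled ACAAT, was in 2 (Tek and Emcn) against 31.0%. The core promoter motif TATAAA was in 1 (Flt1) against 13.6%. GTAAACA, a FOX motif, was in none of the 7 and in 3.65% of all. Of these matches 1, the SOX motif at position -63 of Tek, overlapped an ETS core. Cldn5, with 0 ETS cores in this window, had the largest rise of the 10, and a match or its absence describes these letters only.

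Other genes of the endothelial surface and junctions also rose. Of 24 tested 21 rose in WT and 19 in cKO, none fell, and the medians were 1.44 and 1.14. Over all genes, 15% were called higher in WT and 17.6% in cKO. In WT the largest rises were those of Vwf, the clotting factor stored by endothelium (2.57), Mmrn2, a matrix protein of vessels (2.29), Clec14a, its lectin-like receptor (2.10), Egfl7, a secreted vessel protein (2.0), Adgrf5 (1.89) and Podxl, a sialomucin (1.88). The 3 that did not pass in WT, named after their values were seen, were Cd34, Calcrl and S1pr1, with log2 fold changes of 0.55, 0.09 and 0.92.

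Of 18 endothelial transcription factors tested 6 rose in each genotype and none fell, with medians of 0.71 in WT and 0.38 in cKO. The shares of all genes called higher were 15% and 17.6%. The 6 called in WT were Epas1 (HIF-2 alpha), with a log2 fold change of 2.90, the SOXF factors Sox17 (1.86), Sox18 (1.85) and Sox7 (1.57), the flow-responsive Klf2 (1.44) and Lmo2 (1.23). The ETS factors Erg and Fli1, named after their values were seen, stood at 0.06 and 0.72 and did not pass. A difference between the lists was not tested.

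Genes of arteries, veins and tip cells rose in 5 of 14 cases in WT and 4 in cKO, with none called lower. For these lists too, the shares of all genes called higher were 15% in WT and 17.6% in cKO. The 5 were the gap junction gene Gja4 (2.24), the Notch ligand Dll4 (1.37), the tip cell gene Esm1 (at least 2.83-fold higher, from the floor in all E15.5 libraries), the chemokine receptor Cxcr4 (1.03) and the Notch target Hey1 (0.95). Of the ligands, coreceptors and the phosphatase of the VEGF and angiopoietin systems, 7 of 12 rose in WT and 8 in cKO. They were led in WT by Ptprb, the phosphatase of TEK (2.75 ± 0.34), Angpt2, the context-dependent TEK ligand (2.07 ± 0.21), the VEGF coreceptor Nrp1 (1.47), Angpt1 (1.11), Vegfc (1.08) and Vegfa (1.06 ± 0.21), all as log2 fold changes with SE where given. Vegfa read 4129 ± 1084 in P5 WT and 3940 ± 1010 in P5 cKO (SD, n = 3).

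Some genes of fenestrated capillaries and some of barrier capillaries were higher at P5. Plvap, the diaphragm protein of fenestrae, read 7977, 9217 and 4250 in P5 WT and 6393, 4343 and 6763 in P5 cKO. It rose by 2.08 in both genotypes (log2, limma adjusted p = 0.000197 in WT and 0.000166 in cKO). Per kb of exon, its mean in P5 WT was 3597 ± 1301 (SD, n = 3), above that of each of the 10 genes. It did not exceed the highest of them, Cldn5 at 1929 ± 642, by more than the summed SDs. Of the 4 fenestrated capillary genes 3 rose in WT and 2 in cKO, Cav1 (log2 fold change 1.59 in WT) and, in WT, Car4 (at least 2.44-fold higher) beside Plvap. None of the 6 E15.5 libraries had Car4 above the floor. The barrier transporters Slco1c1 and Abcb1a were at the floor in all 6 E15.5 libraries and at least 2.91-fold and 3.98-fold higher in P5 WT, with 28.1 and 36.4 per kb of exon. In P5 WT the 8 barrier genes tested spanned 28.1 (Slco1c1) to 2357 (Itm2a) per kb, and the 4 fenestrated capillary genes 62.2 (Car4) to 3597 (Plvap). Mfsd2a, a lipid transporter of barrier endothelium, rose by 2.36 in WT (log2) and was at least 3.15-fold higher in cKO, where it was at the floor at E15.5, and Slc7a5 by 1.04 in WT. Mfsd2a did not follow the 10 genes in P5 cKO. It read 117, 156 and 199 in replicates 1, 2 and 3, where replicate 1 was the highest for all 10. Which cells of a library carried the RNA of these transporters was not measured. Of the 8 barrier genes tested, 4 rose in WT, and in cKO 5 rose and Itm2a fell, where 15% (WT) and 17.6% (cKO) of all genes were called higher. Whether a library's endothelium came from choroid, retina or other tissue near the RPE was not measured. These values therefore do not show that the 10 genes were read from choroidal vessels.

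**Figure D3:**
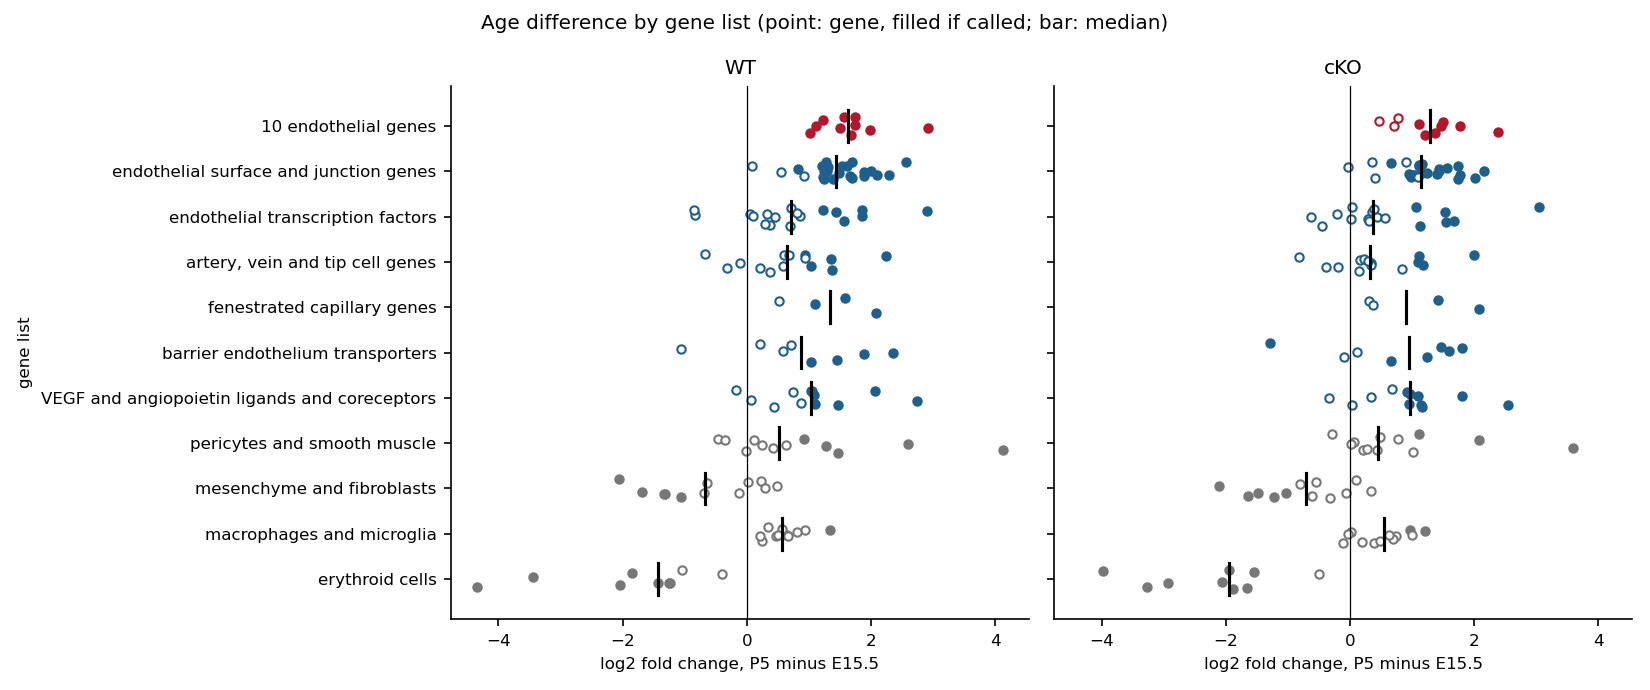
Log2 fold change from E15.5 to P5 of each gene tested (points, filled where called) by gene list, in WT (left) and cKO (right), with the median as a bar. The 10 endothelial genes and the surface and junction genes lie to the right of 0 in WT, while the medians of mesenchyme and erythroid genes are below 0.

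Cells that come with vessels did not all move in the same way. Of 12 pericyte and smooth muscle genes 5 rose in WT and 3 in cKO, where 15% and 17.6% of all genes were called higher. Their median was 0.53 in WT and 0.46 in cKO. Rgs5, a pericyte gene picked after its value was seen, rose most in WT, by 4.12 ± 0.23 (log2, SE). Of 12 mesenchyme and fibroblast genes none rose and 5 fell in each genotype (median -0.67 in WT), where 23.2% of all genes were called lower in WT and 26.1% in cKO. Of 9 erythroid genes tested none rose and 7 fell in WT and 8 in cKO (median -1.43 in WT). Of 12 macrophage and microglia genes 1 was called higher in WT, Csf1r, and 2 in cKO, Csf1r and C1qa, against 15% and 17.6% of all genes. Their medians were above 0 all the same, at 0.57 in WT and 0.56 in cKO, with 0 of the 12 below 0 in WT and 2 in cKO. Of 4 lymphatic genes 1, Pdpn, rose in each genotype and Reln fell in cKO, and of 3 platelet genes 1, Gp1bb, rose in each genotype (these few were named after their values were seen). Of 6 astrocyte and Muller glia genes, cells that accompany retinal vessels, 4 rose in WT and 5 in cKO, and their mean log2 level went from 7.27 to 7.64 at E15.5, with Gfap and S100b at the floor in all 6 libraries, to 9.49 to 10.95 at P5. Of 8 neural crest and Schwann cell genes 6 rose in WT and 3 in cKO, and 1 fell in each. The part of these cells in the rise of the 10 genes was not tested.

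The 10 genes did not rise evenly, which showed when each was set against the mean of the other 9 in the same library (a log2 difference, free of any factor common to the 10). Cldn5 stood at -1.42 ± 0.08 (SD, n = 3) in E15.5 WT and -0.01 ± 0.38 in P5 WT, and at -1.40 ± 0.12 and -0.18 ± 0.20 in cKO. Tek moved the other way, from -0.45 ± 0.19 to -1.15 ± 0.16 in WT and from -0.48 ± 0.04 to -1.03 ± 0.02 in cKO (SD, n = 3), and so did Cdh5, from 1.38 ± 0.07 to 0.91 ± 0.24 in WT. Eng gained, from 0.69 ± 0.12 to 1.06 ± 0.05 in WT and from 0.71 ± 0.09 to 1.26 ± 0.15 in cKO (SD, n = 3). For these 4 genes the libraries of the 2 ages did not overlap in either genotype (exact permutation p = 0.1, the smallest possible). In the same measure, the level against the mean of the 10, 1.49% of all genes tested were higher and 85.1% lower without overlap in WT, and 2.66% and 77.3% in cKO, since most genes did not rise as the 10 did. In cKO another 4 genes did not overlap between ages: Kdr and Flt1 were lower against the other 9 at P5, and Tie1 and Emcn were higher. Between genotypes at P5, 1 of the 10, Eng, was higher without overlap, a share near the 10.9% of all genes that were.

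Kdr was nearer to the other 9 genes in 5 of the 6 P5 libraries than at E15.5, and P5 WT replicate 3 was the exception. Against the mean of the other 9 it stood at 1.19, 1.01 and 1.20 in E15.5 WT and at 0.34, -0.03 and 1.31 in P5 WT (replicates 1, 2 and 3), and at 0.13, 0.25 and 0.03 in P5 cKO. P5 WT replicate 3 thus had a value like those of E15.5, and in it each of the other 9 genes was at its lowest among the P5 WT libraries. The same library had the highest mean log2 level of 15 photoreceptor genes, 12.16, and of 12 retinal progenitor and neuron genes, 9.06 against 6.07 to 7.91 in the other P5 libraries. Kdr is known to be expressed by neural cells of the developing retina as well as by endothelium; the part of retinal RNA in its level here was not tested.

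**Figure D4:**
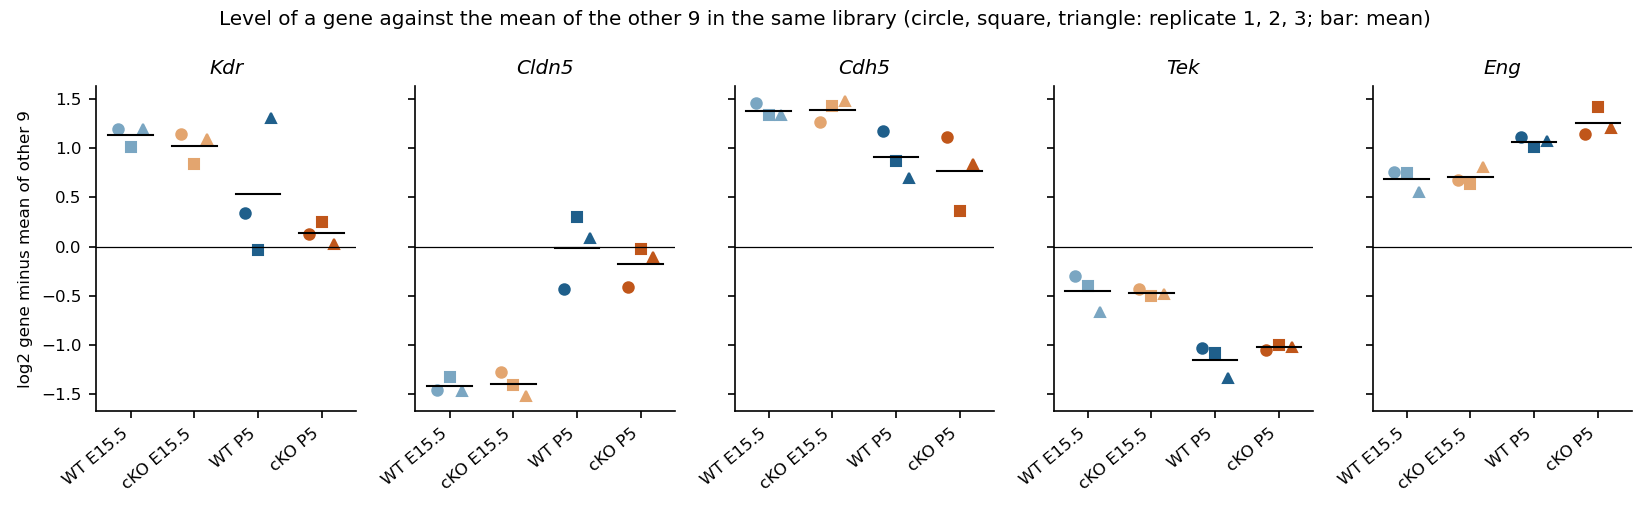
Log2 level of Kdr, Cldn5, Cdh5, Tek and Eng minus the mean of the other 9 endothelial genes in the same library, by group, with 1 point per library and a bar at the mean. Cldn5 moves up by over 1 from E15.5 to P5, Tek and Cdh5 move down, and Kdr is high in P5 WT replicate 3 alone among the P5 libraries.

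Between genotypes at E15.5, no difference was detected in the 10 genes. Their log2 fold changes lay between -0.15 ± 0.22 in Kdr and 0.04 ± 0.29 in Flt1 (SE), with a median of -0.04 against 0 over all genes tested. The limma fit called none of the 10, with 0 at an unadjusted p under 0.05, and 0.00739% of all genes were called in either direction. The groups overlapped in all 10, where 2.11% of all genes were higher and 2.99% lower without overlap. Of the 24 surface and junction genes none was called either, with a median of -0.06.

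At P5, all 10 genes were lower in the libraries labelled cKO, though none passed over all genes. The log2 fold changes ran from -0.25 ± 0.26 in Eng to -0.78 ± 0.22 in Kdr (SE), with a median of -0.37 against -0.02 over all genes tested, of which 54.9% were below 0. Limma adjusted p ran from 0.318 to 0.901, 2 of the 10 (Kdr and Cldn5) had an unadjusted p under 0.05, as did 7.68% of all genes, and 0.244% of all genes were called in either direction, 0.0444% lower. The 10 share their libraries, so that their common direction counts as 1 observation and not as 10. Of the 24 surface and junction genes 23 were below 0 (median -0.37), and none was called.

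Kdr was the one gene of the 10 whose P5 libraries did not overlap, with 4361, 2966 and 3923 in WT above 2932, 1610 and 2099 in cKO, and 2.73% of all genes were lower without overlap. The gap between the lowest WT and the highest cKO library was small beside the spread. Its means were 3750 ± 714 and 2214 ± 668 (SD, n = 3), 1.72-fold apart on the log2 scale, with an exact permutation p of 0.1, the smallest possible. Kdr passed in 1 alternative, without cKO replicate 1 (log2 fold change -1.01, limma adjusted p = 0.0481, the lowest of values spanning 0.0481 to 1 over all alternatives run for Kdr). Cldn5 read 2732 ± 909 (SD, n = 3) in WT against 1795 ± 390 in cKO, and its groups overlapped. The log2 fold change was -0.57 ± 0.23 (SE). It passed with library weights alone (log2 fold change -1.14, limma adjusted p = 0.0311), a fit in which the median of the 10 was -0.73.

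The size of the P5 difference rested on single libraries. The median log2 fold change of the 10 was -0.72 without WT replicate 3 and -0.60 without cKO replicate 1, but -0.12 without WT replicate 1, -0.12 without cKO replicate 2 and -0.22 without WT replicate 2. The number of the 10 with an unadjusted p under 0.05 by limma was 10 without WT replicate 3 and 4 without cKO replicate 1, but 1 without WT replicate 1, WT replicate 2 or cKO replicate 2. It was 8 with library weights, 7 without both libraries of highest photoreceptor level, 6 with the photoreceptor level as a term and 1 with only the libraries compared. Within WT, replicate 3 was the lowest for 9 of the 10 genes (all but Kdr) and replicate 1 the highest for 8. Within cKO, replicate 1 was the highest and replicate 2 the lowest for all 10.

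The P5 libraries with the highest photoreceptor levels, WT replicate 3 and cKO replicate 2, were those with the lowest levels of the 10 genes. The mean log2 level of the 10 was 11.78, 11.56 and 10.76 in WT and 11.41, 10.43 and 11.01 in cKO, where that of 15 photoreceptor genes was 7.47, 8.99 and 12.16 and 7.49, 11.31 and 10.21. The summed level of the photoreceptor list spanned 3546 to 113945 for P5 WT libraries and 3580 to 56774 for P5 cKO, and 0 to 5 of its genes were at the floor per P5 library. Pericyte and smooth muscle genes followed the 10, with mean log2 levels of 10.99, 10.51 and 9.87 in WT and 10.90, 9.96 and 10.26 in cKO. Mesenchyme genes had the same order of libraries, at 12.91, 12.55 and 12.04 in WT and 13.09, 11.96 and 12.07 in cKO. So did macrophage and microglia genes, at 8.76, 8.39 and 7.25 in WT and 8.65, 7.68 and 7.77 in cKO. The order was thus not particular to cells of vessels. RPE genes had another order, at 12.41, 12.55 and 11.36 in WT and 11.57, 11.87 and 12.18 in cKO. Lens and skeletal muscle genes were higher in the libraries labelled cKO without being called: 10 lens genes had a median genotype difference of 1.36 and 11 muscle genes of 0.89 (log2). Their mean log2 levels were 7.33, 8.58 and 5.84 (lens) and 12.20, 10.81 and 9.93 (muscle) in P5 WT, and 8.50, 8.11 and 9.02 and 12.36, 12.44 and 11.13 in P5 cKO. Astrocyte and Muller glia genes had a median genotype difference of -0.63 with none of 6 called, and mean log2 levels of 9.74, 10.95 and 10.01 in P5 WT and 9.68, 9.49 and 10.11 in P5 cKO. The part of retinal, glial, lens or muscle RNA in the genotype difference was not tested. The fits that follow use the photoreceptor level alone and were chosen after the data were seen, so they do not decide it. With the photoreceptor level as a term in the model, chosen after the data were seen, the 10 genes had a median genotype difference of -0.34 and none passed (lowest limma adjusted p 0.0738, in Kdr). Without the pair of libraries of highest photoreceptor level the median was -0.46 and none passed.

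**Figure D5:**
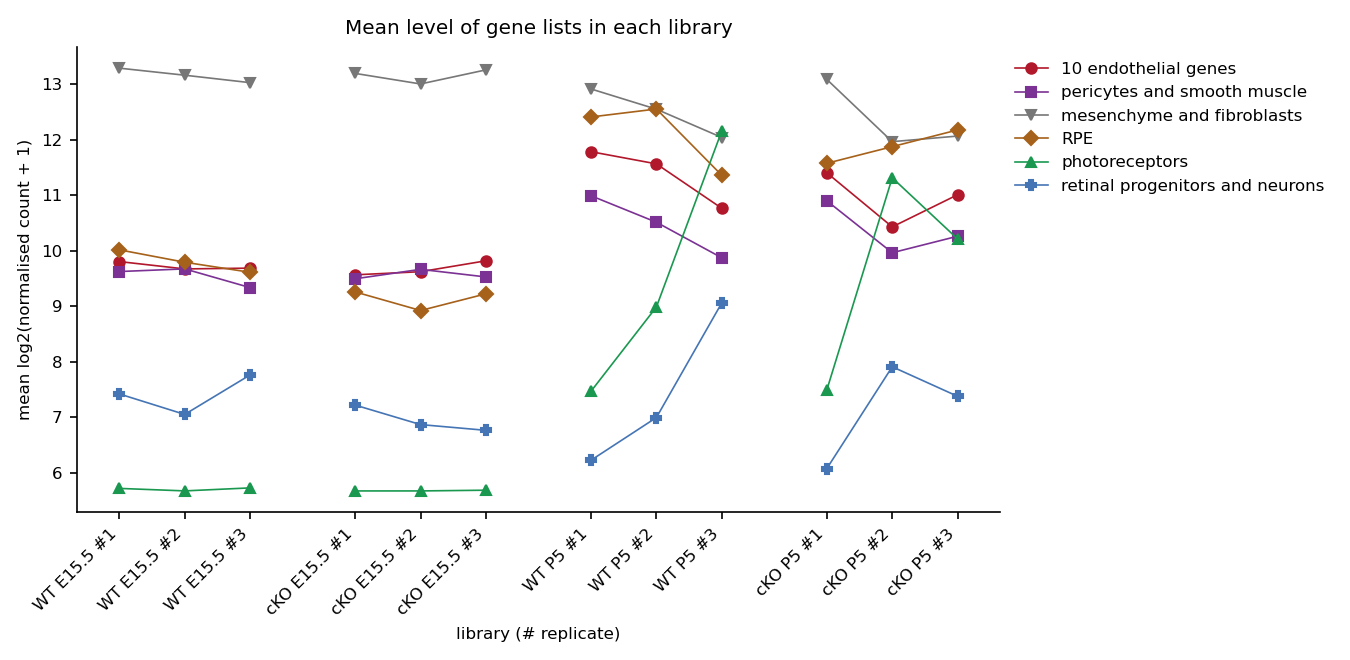
Mean log2(normalised count + 1) of 6 gene lists in each of the 12 libraries; lines only link the points of a list within a group. In the P5 libraries the 10 endothelial genes, the pericyte genes and the mesenchyme genes are lowest in WT replicate 3 and cKO replicate 2. Photoreceptor and retinal neuron genes are highest in those libraries. At E15.5 photoreceptor genes stay between 5.67 and 5.73.

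The change of the genotype difference with age was not called in any of the 10 genes. The interaction (the difference at P5 minus that at E15.5) ran from -0.21 ± 0.43 in Emcn to -0.64 ± 0.31 in Kdr (log2, SE), with 0 of the 10 at an unadjusted p under 0.05 and every limma adjusted p at 1.0; 0.0592% of all genes were called. So the age rise, called in 10 genes in WT and 7 in cKO, was not shown to differ between genotypes.

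Levels between genes can be compared per kb of exon. In E15.5 WT, Cdh5 was highest at 476 ± 45 per kb, followed by Eng at 321 ± 33.1, Cldn5 at 245 ± 12.1 and Emcn at 207 ± 21.1 (SD, n = 3). Each of the first 3 exceeded the next by more than the summed SDs, whereas Emcn and Kdr, and Kdr and Tie1, did not differ beyond their spread. Tie1 exceeded Pecam1 beyond the spread, while Pecam1 and Tek, and Tek and Esam, did not differ beyond it. Flt1 was lowest at 39.6 ± 2.15, beyond the spread below Esam. In P5 WT the order began with Cldn5 at 1929 ± 642, Eng at 1328 ± 457 and Cdh5 at 1208 ± 552 (SD, n = 3), and no neighbours in the order differed beyond their spread. Flt1 was lowest again at 126 ± 52.3. The order in cKO also began with Cdh5, Eng and Cldn5 at E15.5 and with Cldn5, Eng and Cdh5 at P5.

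Some other genes tracked the 10 from library to library. Likeness was the Pearson correlation, over the 12 libraries, between a gene's deviations from its group means and those of the mean log2 level of the 10 genes, given as a description. Replicates differed more at P5, where that mean level ran from 10.43 to 11.78, than at E15.5, with 9.57 to 9.82. Within the P5 groups it was lowest in WT replicate 3 and cKO replicate 2, the libraries of highest photoreceptor level. Whether likeness reflects expression in the same cells was not tested. Each of the 10 had a likeness to the mean of the other 9 of 0.811 to 0.984, except Kdr at 0.478. Of all other genes tested, the most alike were Tspan4 (a tetraspanin, 0.998), Shisa5 (0.994), Prrg3 (0.993), the heparan sulfate proteoglycan Sdc1 (0.993), the heparan sulfate enzyme Hs3st3a1 (0.993), Fgd5 (0.992), Ccdc8 (0.991), Lrrc8c (a volume-regulated channel subunit, 0.991), the non-muscle myosin Myh9 (0.990) and the ETS factor Elk3 (0.990). Likeness between replicates went with different age changes: Fgd5 rose in WT (log2 fold change 1.09, limma adjusted p = 0.0221), while Sdc1 fell by 1.82 and Ccdc8 by 1.18 on the log2 scale.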

How the data were processed

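RNA was measured in 12 libraries of mouse RPE by sequencing of polyadenylated RNA. Reads were aligned with TopHat2 2.0.10 to mm10 and counted with HTSeq, per the submitters' processing notes; sources used here do not give the annotation or the strand setting. The values the authors deposited are a signal, gene counts quantile-normalised to 1 common set of values with a floor of 50, at which 9.87% of each library lies, as seen from the values: all libraries share the same sorted values. No count model was therefore used, and depth and counting error are unknown. Log2(value + 1) of the 13523 genes above the floor in at least 3 libraries entered a limma model (version 3.58.1, R 4.3.3) that had 1 mean per group, a mean-variance trend and all 12 libraries. Tests were two-sided, with Benjamini-Hochberg adjustment over all genes tested and calls at an adjusted p under 0.05. Fold changes on this scale understate those of low genes. The fit was tested on simulated data. Labels do not say that libraries came from separate animals, so p-values measure the spread between these samples, which may be technical.

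The 10 genes and the gene lists were chosen with earlier results of these data known. Named were all 10, up to 6 called genes by size of change from each endothelial list, and the 10 genes most like them; others are marked in the text. Positions and exon lengths are from GENCODE M21 (GRCm38). Alternatives changed the pseudocount, the filter, the libraries fitted, a replicate block, library weights, the trend, the scaling and each library left out.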

Additional observations from a re-analysis of the deposited data

How the results depend on the processing

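All 10 genes kept a positive age difference in both genotypes under every alternative run. Changing the filter or the trend, adding a replicate block or fitting only the libraries compared left these fold changes as they were. Those alternatives could not change a sign. Replicate numbers were not taken to pair the libraries: 7 of 18 same-numbered pairs of libraries correlated above 0.1 (-0.34 to 0.78), and a library correlated best with its own number in 11 of 36 cases. With the replicate number as a block, 18 genes were called between genotypes at P5 in place of 33, and Kdr was called with age in cKO (adjusted p = 0.0227 by limma). Genes called at P5 were 19 when required above the floor in 6 libraries, 2 with only the libraries compared and 194 with the photoreceptor level as a term. With library weights, whose estimation stopped before convergence, genes called were 14 at E15.5 in place of 1, 59 at P5, 9606 with age in WT in place of 5171 and 32 for the interaction in place of 8, and 1 of the 10 genes (Cldn5) was called at P5. The causes were not tested. Leaving out 1 library gave 1 to 4 genes at E15.5 (4 without cKO replicate 3) and 12 to 132 at P5, where the library left out was WT replicate 3 for 78 genes and cKO replicates 1, 2 and 3 for 132, 14 and 12. It gave 4 to 24 for the interaction, with 16 without P5 WT replicate 3 and 24 without P5 cKO replicate 1. Of the 10 genes it left 0 to 1 called at P5 (Kdr, without cKO replicate 1), 8 to 10 with age in WT and 6 to 10 in cKO. With only the libraries compared, Tek was not called with age in WT (limma adjusted p = 0.0745) but was called in cKO (0.0345), as it was in cKO with median-ratio scaling (0.0420).

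Signs of small genotype differences changed (log2). With library weights at E15.5, Flt1 was at -0.018 and Pecam1 at 0.040. Leaving out 1 library at E15.5 gave ranges of -0.16 to 0.067 in Cdh5, -0.15 to 0.039 in Eng, -0.14 to 0.019 in Esam, -0.028 to 0.11 in Flt1, -0.078 to 0.097 in Pecam1, -0.19 to 0.039 in Tek and -0.14 to 0.088 in Tie1. At P5 the range in Pecam1 was -0.66 to 0.051, from without WT replicate 3 to without cKO replicate 2. The interaction ranged from -0.56 to 0.065 in Emcn, -0.51 to 0.015 in Eng, -0.65 to 0.054 in Pecam1 and -0.62 to 0.024 in Tek, each lowest without P5 WT replicate 3.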
